A study of Mus musculus with 6 samples.

Results

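Levels of 9 genes were followed through organoids of mouse esophageal epithelium: the epidermal growth factor receptor (EGFR) ligand genes Areg, Ereg, Hbegf, Tgfa, Btc and Epgn, and the receptor genes Egfr, Erbb2 and Erbb3. They were chosen by name, from the 32285 genes of the deposited single-cell tables, and all 9 were found in all 6 tables. Ligand genes are read here as marking possible senders and receptor genes possible receivers; RNA was measured, not protein or signalling. The organoids grew from basal cells of C57BL6 mice that were sorted as positive for integrin-b1, negative for the dead-cell stain DAPI, and either low or high in Cyto-ID, a dye for autophagic vesicles. The series asks about the part that such vesicles play in the homeostasis of this epithelium. Both groups were grown for 15 days in Matrigel, in a medium that held 50 ng/ml of human recombinant EGF, Noggin and R-Spondin and 10 µM of the ROCK inhibitor Y27632, so EGFR ligand was supplied to every culture from outside. Each group had 3 libraries, labelled F2, M3 and F6, and the values of a group are given below in that order. The age of the mice, and whether each library came from a separate animal, is not given in the sources used here, so p-values measure the spread between these libraries, which may be technical.

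EGFR and its relatives ERBB2, ERBB3 and ERBB4 are receptor tyrosine kinases that work as pairs. Amphiregulin (Areg), epiregulin (Ereg), heparin-binding EGF-like growth factor (Hbegf), transforming growth factor alpha (Tgfa), betacellulin (Btc) and epigen (Epgn) are made as membrane-anchored precursors, which proteases such as ADAM17 and ADAM10 cut free. In stratified epithelia this pathway acts through RAS and ERK on the growth, migration and maturation of keratinocytes, and injury is known to raise several of its ligands. ERBB2 binds no ligand known and serves as a partner of the others, and ERBB3, whose kinase is weak, binds neuregulins.

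4 of the 6 ligand genes lie side by side on mouse chromosome 5 (GRCm38, GENCODE M21 annotation): Epgn at chr5:91027464-91035215, Ereg at chr5:91074622-91093646 and Areg at chr5:91139599-91148432 on the plus strand, and Btc at chr5:91357261-91402994 on the minus strand. They are the only protein-coding genes annotated in these 376 kb. Tgfa lies at chr6:86195223-86275719, Erbb3 at chr10:128567523-128589652 (minus), Egfr at chr11:16752203-16918158 (plus) and Erbb2 at chr11:98412470-98437716 (plus). The 250 bases before the start site are shown for 3 genes that the results below turn on: Areg and Btc, the neighbours with the widest differences between basal and suprabasal cells, and Egfr, the gene whose level differed least between them. The sequences are from RefSeq (GRCm38.p6), written 5′ to 3′ on the gene's own strand, at chr5:91139349-91139598 (plus) for Areg, chr5:91402995-91403244 (minus) for Btc and chr11:16751953-16752202 (plus) for Egfr. Capitals mark matches to the letters searched.
Areg: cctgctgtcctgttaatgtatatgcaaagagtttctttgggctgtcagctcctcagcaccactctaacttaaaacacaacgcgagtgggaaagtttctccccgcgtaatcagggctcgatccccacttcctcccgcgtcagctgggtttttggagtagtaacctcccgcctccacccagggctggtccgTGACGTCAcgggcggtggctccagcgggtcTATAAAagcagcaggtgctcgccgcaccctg
Btc: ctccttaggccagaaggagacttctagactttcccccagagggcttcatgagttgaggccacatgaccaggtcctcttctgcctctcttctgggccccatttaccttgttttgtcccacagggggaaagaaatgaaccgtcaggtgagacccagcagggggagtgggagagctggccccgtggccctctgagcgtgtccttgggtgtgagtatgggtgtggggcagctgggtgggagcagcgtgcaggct
Egfr: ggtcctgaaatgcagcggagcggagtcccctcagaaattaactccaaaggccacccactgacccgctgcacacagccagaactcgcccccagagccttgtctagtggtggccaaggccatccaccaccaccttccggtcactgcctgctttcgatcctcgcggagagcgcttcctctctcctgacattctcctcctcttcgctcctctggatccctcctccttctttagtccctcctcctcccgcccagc
Searched on both strands were the cyclic AMP response element TGACGTCA, the AP-1 letters TGANTCA and the TATA box TATAAA, chosen after the levels were known. The Areg window held TGACGTCA once, with its first base 61 bases before the start, and TATAAA once, 31 bases before it. TGACGTCA was found in 1.55% of 32851 mouse promoter windows of this length, TATAAA in 12.4% and TGANTCA in 6.75%. The Btc and Egfr windows held none of the 3. Promoters of Epgn, Tgfa and Erbb2 were also in the table, of which Epgn alone held a match, 1 TATAAA; those of Ereg, Hbegf and Erbb3 were not analysed here.

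In all, 25154 of 26808 barcodes with at least 500 detected genes were kept, 3547, 5617 and 2667 in Cyto-ID Low and 4356, 4483 and 4484 in Cyto-ID High. Depth was uneven, at 8457489 to 48957523 UMIs (unique molecular identifiers, each counting 1 captured RNA molecule) per library and medians of 1940.5 to 10038 UMIs per kept cell. Pairs of libraries shared at most 8 barcodes. Cells were grouped without the 9 genes and without the pathway genes named below, and clusters were named from squamous markers: basal-like and proliferating-like at the base, then suprabasal-like, then superficial-like at the surface. The classes come from the same cells that are compared, so a test between classes speaks only of how alike the libraries are. A cluster led by Krt12 and Alox15 (3158 cells) matched no class well enough to be named, and one led by Ifit3b (342 cells), nearest to superficial-like by its markers, was left unnamed for its few UMIs per cell. The suprabasal-like name of a cluster led by Il33 (3764 cells) was a near call. Its mean log2 fold over the other cells was 0.449 for the suprabasal-like and 0.293 for the superficial-like markers. For a cluster led by Calm4, also named suprabasal-like, these were 2.00 and -0.509. Defining markers of immune (Ptprc), endothelial (Cdh5, Emcn) and fibroblast (Col3a1) cells had no UMI in any kept cell, and the summed level of the fibroblast list was 0.293 to 0.966 CPM (UMIs of a gene in a cell per 1e6 UMIs of that cell, averaged over cells) in Cyto-ID Low and 0.435 to 5.19 CPM in Cyto-ID High libraries. Other members of these lists were found: Cd68 gave 2453 of the 2470 UMIs of the immune list (15.3 to 22.2 CPM in Cyto-ID Low, 8.44 to 14.6 CPM in Cyto-ID High), Pecam1 77 of 79 of the endothelial and Acta2 1583 of 1592 of the muscle list. The glandular list, nearly all Krt7, was at 1053 to 1937 CPM in Cyto-ID Low and 220 to 1063 CPM in Cyto-ID High libraries, with Muc5b at 0. The part of these lists in the results below was not tested.

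Ligand RNA was highest above the basal layer, though not for every ligand in each cluster of the suprabasal-like class, as given below. Areg, a ligand of EGFR alone, was at 34.3, 18.2 and 40.8 CPM in basal-like cells of Cyto-ID Low libraries and at 18.7, 21.5 and 21.7 CPM in those grown from Cyto-ID High founders. In suprabasal-like cells it was at 236, 129 and 223 CPM and at 82.1, 87.9 and 99.5 CPM. Every suprabasal value lay above every basal value. Within libraries Areg was 6.83-fold higher in suprabasal-like than in basal-like cells, a log2 difference of 2.77 ± 0.12 (SE, n = 6 libraries; adjusted p = 2.07e-09 by limma). This test and those that follow were made with limma on log2(CPM + 1), after TMM scaling (trimmed mean of M values, which sets the bulk of genes level between classes), with p-values adjusted over all genes by the Benjamini-Hochberg method and called under 0.05. In superficial-like cells Areg was at 92.8, 56.4 and 96.2 CPM and at 47.6, 59.4 and 170 CPM, below its suprabasal level in 5 of 6 libraries. The exception was Cyto-ID High F6, with 155 superficial-like cells.

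Btc, which can bind both EGFR and ERBB4, was close to undetected in basal-like cells, at 2.43, 0.66 and 3.23 CPM and at 1.47, 1.46 and 0.423 CPM. Its suprabasal levels were 16.0, 9.75 and 18.5 CPM in Cyto-ID Low and 6.22, 4.56 and 6.79 CPM in Cyto-ID High libraries, with no overlap with the basal values. The log2 difference was 2.38 ± 0.21 (SE, n = 6; adjusted p = 9.41e-07 by limma). These levels rest on 811 Btc UMIs in all kept cells.

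Hbegf, a ligand that also binds heparan sulfate, lies at chr18:36504927-36515805 on the minus strand. It was at 317, 119 and 441 CPM in basal-like cells of Cyto-ID Low and at 186, 100 and 105 CPM in those of Cyto-ID High libraries. Its level was 599, 357 and 867 CPM and at 404, 408 and 295 CPM in suprabasal-like cells, and at 636, 461 and 844 CPM and at 623, 596 and 804 CPM in superficial-like cells. Across libraries the basal and suprabasal values overlapped, yet in all 6 libraries the suprabasal level was the higher, by 1.77 ± 0.13 in log2 (SE; adjusted p = 1.84e-07 by limma). The superficial level exceeded the suprabasal one in 5 of 6 libraries. Tgfa had its highest level in superficial-like cells of every library, at 87.3, 48.2 and 48.6 CPM and at 85.8, 28.1 and 49.0 CPM. Its basal levels were 34.1, 18.1 and 23.3 CPM and 24.0, 10.8 and 23.7 CPM. Tgfa rose by 0.80 ± 0.10 in log2 from basal-like to suprabasal-like cells and by 2.13 ± 0.19 to superficial-like cells (SE, n = 6; adjusted p = 2.44e-05 and 1.64e-06 by limma).

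Ereg and Epgn, the other ligands of the chromosome 5 group, were scarce, with 758 and 362 UMIs in all. Ereg was at 3.63 ± 1.45 CPM (SD, n = 6) in basal-like and 8.10 ± 4.09 CPM in suprabasal-like cells, a log2 difference of 1.25 ± 0.21 (SE; adjusted p = 0.000272 by limma). Epgn was at 1.62 ± 1.62 CPM and 3.46 ± 1.86 CPM (SD, n = 6), a log2 difference of 1.11 ± 0.24 (SE; adjusted p = 0.00146 by limma). With each cell thinned to 1000 UMIs, the Epgn difference no longer passed the test (0.67, adjusted p = 0.281 by limma).

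**Figure D1:**
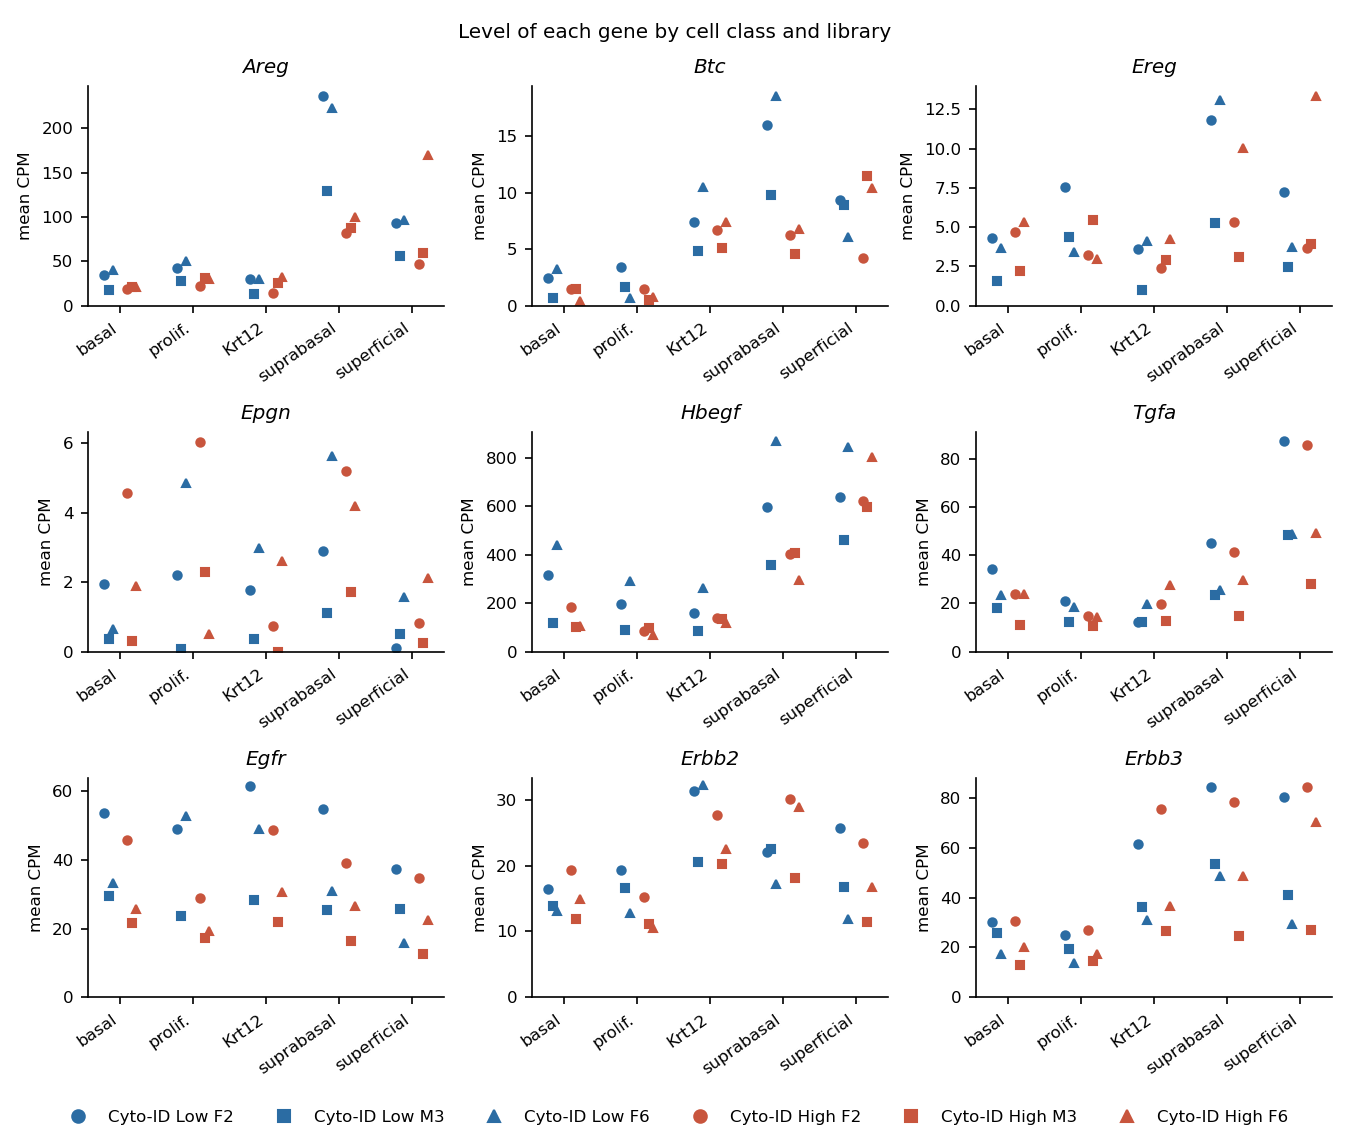
Mean CPM of each gene (vertical axes, each from 0) in 4 cell classes and the Krt12 cluster, 1 point per library, blue for Cyto-ID Low and red for Cyto-ID High, with the marker shape giving the replicate label. Areg and Btc peak in suprabasal-like cells of Cyto-ID Low libraries (Areg 129 to 236 CPM), Hbegf and Tgfa stay high in superficial-like cells, and Egfr differs less between classes than between libraries.

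Among the receptors, Erbb3 was higher above the basal layer, as most ligands were. It was at 30.3, 25.7 and 17.2 CPM and at 30.4, 12.9 and 20.3 CPM in basal-like cells, and at 84.2, 53.5 and 48.8 CPM and at 78.1, 24.7 and 48.5 CPM in suprabasal-like cells. The suprabasal level was higher in all 6 libraries, by 1.64 ± 0.10 in log2 (SE; adjusted p = 3.26e-08 by limma), and the superficial level by 1.98 ± 0.15 (adjusted p = 4.20e-07). Erbb2, the partner receptor, was at 14.9 ± 2.65 CPM (SD, n = 6) in basal-like and 23.1 ± 5.34 CPM in suprabasal-like cells, a log2 difference of 0.99 ± 0.10 (SE; adjusted p = 5.26e-06 by limma). Egfr, the receptor that all 6 ligands can engage, differed least of the 9 genes between suprabasal-like and basal-like cells. It was at 53.8, 29.7 and 33.4 CPM and at 45.9, 21.8 and 25.8 CPM in basal-like cells, against 55.0, 25.6 and 31.0 CPM and 39.2, 16.4 and 26.7 CPM in suprabasal-like cells. M3 was the lowest library in each group and layer, and the layers overlapped. The TMM-scaled difference was 0.27 ± 0.09 in log2 (SE, n = 6; adjusted p = 0.0213 by limma).

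The direction of the Egfr difference depended on the scaling. Without TMM factors (plain CPM) the median of all genes tested stood at -0.39 in log2 between suprabasal-like and basal-like cells and at -0.85 between superficial-like and basal-like cells, against -0.01 and -0.16 with TMM. On plain CPM, Egfr was lower in suprabasal-like cells by 0.14 (log2 difference -0.14, adjusted p = 0.202) and in superficial-like cells by 0.50 (-0.50, adjusted p = 0.0124, both by limma), and the other 8 genes remained higher in suprabasal-like cells and called. Over the alternatives tried, the adjusted p of the suprabasal Egfr difference ranged from 0.0025 to 0.496. It rose above 0.05 from summed UMIs (0.0929), where 8 of 9 members were called, and without Cyto-ID Low F2 (0.0728), Cyto-ID Low M3 (0.0509) or Cyto-ID High F6 (0.0532).

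In counts, 9 of 9 genes were called higher in suprabasal-like than in basal-like cells, where 58.1% of all genes tested were called, 30.1% as higher. The median of the 9 log2 differences was 1.25, against -0.01 over all genes, of which 27.9% were called lower. On plain CPM 8 of the 9 were called higher, as were 16.2% of all genes, with 53.9% lower. Thinned to 1000 UMIs per cell, 7 of 9 were called higher, without Epgn and without Egfr (0.15, adjusted p = 0.496 by limma). Of all genes 42.5% were called in that setting, 2428 of 11962 as higher and 2661 as lower. In superficial-like cells 7 of 9 were called higher (62.9% of genes called, 28.5% as higher), with Hbegf at 2.70 ± 0.18, Btc at 2.50 ± 0.31 and Areg at 2.47 ± 0.15 in log2 (SE). The other two were Egfr (0.32 ± 0.17, adjusted p = 0.116 by limma) and Epgn (-0.01 ± 0.31, adjusted p = 0.982), the latter with 13 UMIs in superficial-like cells. On plain CPM the superficial differences of Ereg (0.43, adjusted p = 0.151) and Erbb2 (0.19, adjusted p = 0.347) did not pass by limma either. With that scaling 13.3% of all genes were called higher and 62.1% lower, and with TMM 34.3% were lower. Thinned to 1000 UMIs per cell, 5 of 9 were called higher, without Erbb2 and without Ereg, which turned to -0.96. Of all genes 55.6% were called in that setting, 1801 of 11931 as higher and 4836 as lower. Between proliferating-like and basal-like cells 3 of 9 were called (30.6% of genes called, 14.2% higher and 16.3% lower, and 16.1% and 13% on plain CPM): Areg was higher, by 0.36 ± 0.09, and Hbegf and Tgfa were lower, by -0.63 ± 0.09 and -0.52 ± 0.12 (log2, SE, n = 6). These counts lie near the shares of all genes and are no result about the 9 genes as a set. Thinned to 1000 UMIs per cell, Hbegf alone of the 9 was called, where 16% of genes were.

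**Figure D2:**
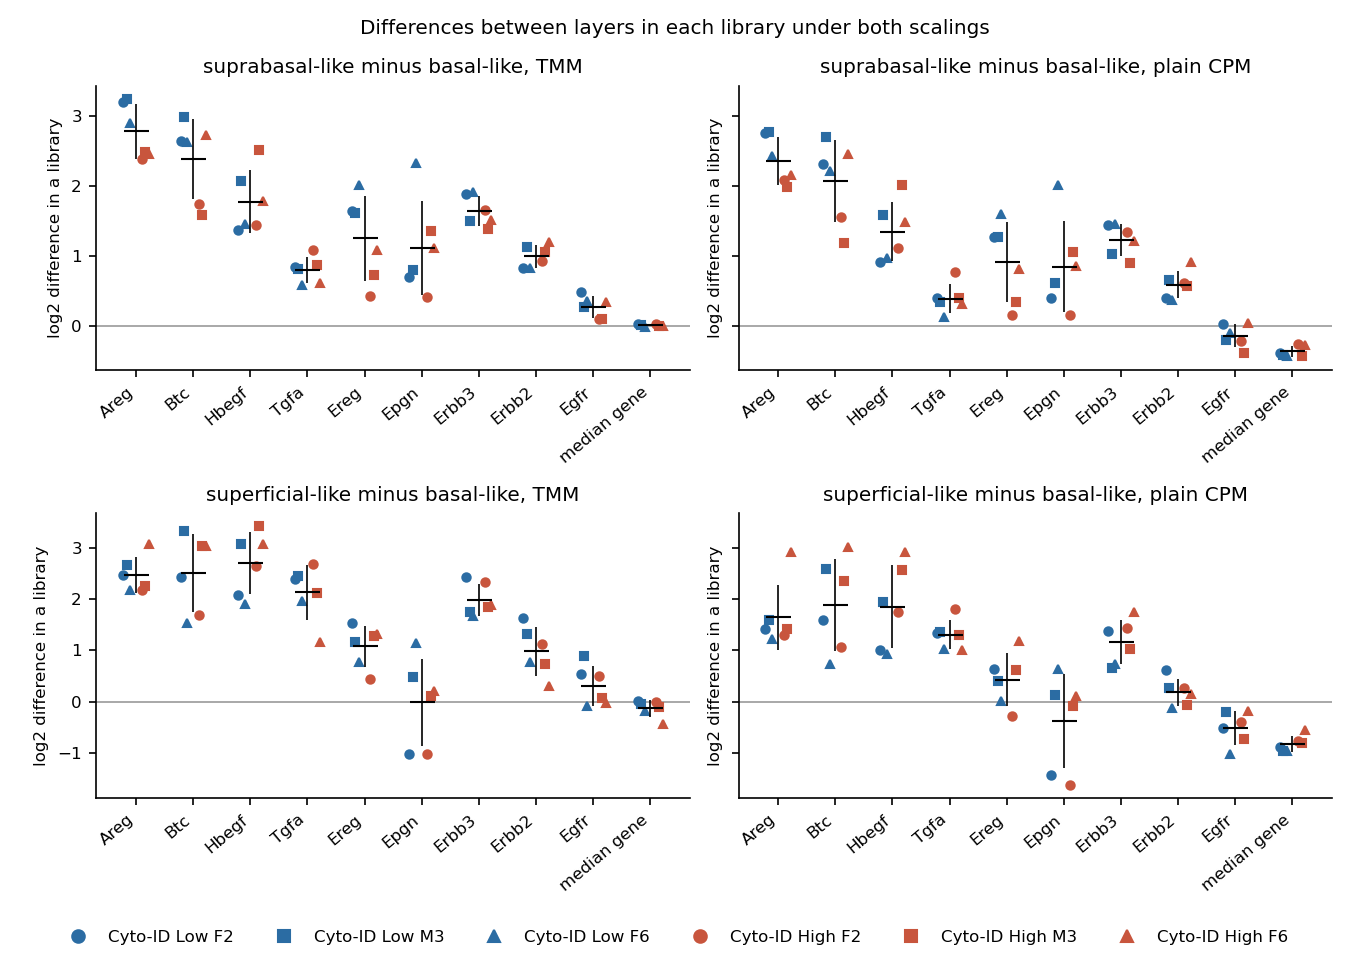
Log2 difference of each gene between layers in each library (points; blue Cyto-ID Low, red Cyto-ID High), with mean and SD over 6 libraries in black, after TMM scaling (left) and on plain CPM (right); "median gene" is the median of all genes tested. Areg, Btc, Hbegf and Erbb3 lie above 0 in 6 of 6 libraries under both scalings, whereas Egfr follows the scaling. With TMM Egfr lies above 0 in 6 of 6 libraries in suprabasal-like and 4 of 6 in superficial-like cells. On plain CPM it does so in 2 of 6 and 0 of 6.

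The Krt12 cluster, which was not named, had Erbb2 and Erbb3 above their basal levels, but not Areg and Hbegf. There Areg was at 24.0 ± 8.41 CPM and Hbegf at 150 ± 59.9 CPM, beside 25.8 ± 9.40 and 211 ± 139 CPM in basal-like cells, with both lower than there in 4 of 6 libraries, while Erbb3 was at 44.6 ± 19.4 CPM and Erbb2 at 25.8 ± 5.39 CPM (SD, n = 6). Erbb3 and Erbb2 were higher there than in basal-like cells in 6 of 6 libraries. Btc, at 7.0 ± 2.06 CPM, was also above its basal level of 1.61 ± 1.06 CPM in 6 of 6.

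Senders and receivers were then counted cell by cell, after thinning each cell to 1000 UMIs so that depth was equal. A ligand UMI was found in 19.7 ± 9.34% of basal-like, 15.9 ± 5.82% of proliferating-like, 39.6 ± 11.4% of suprabasal-like and 47.1 ± 5.96% of superficial-like cells, and in 15.1 ± 3.53% of the Krt12 cluster (SD, n = 6 libraries). Suprabasal-like cells exceeded basal-like cells in 6 of 6 libraries. Most of this was Hbegf, seen in 15.7 ± 8.72% of basal-like and 40.2 ± 5.48% of superficial-like cells. A receptor UMI was rarer and more even, at 7.10 ± 2.07% of basal-like, 6.0 ± 1.80% of proliferating-like, 10.6 ± 3.58% of suprabasal-like and 8.82 ± 4.29% of superficial-like cells, and 9.69 ± 2.91% of the Krt12 cluster. Here too suprabasal-like cells exceeded basal-like cells in 6 of 6 libraries. By gene, Egfr was seen in 3.33 ± 0.87% of basal-like and 3.13 ± 1.44% of suprabasal-like cells. Erbb3 was seen in 2.43 ± 1.03% and 5.37 ± 2.11%, and Erbb2 in 1.49 ± 0.29% and 2.54 ± 0.51%. Cells with both a ligand and a receptor UMI were 1.83 ± 1.06% of basal-like and 4.64 ± 2.42% of suprabasal-like cells. Among basal-like cells a ligand UMI was found in 24.9% of those with a receptor UMI and in 19.3% of the others, and the first was higher in 6 of 6 libraries. The same order held in 4 of 6 libraries in proliferating-like and in superficial-like cells, in 3 of 6 in suprabasal-like cells, and in 2 of 6 in the Krt12 cluster. Doublets were not removed, and the basal-like class pools clusters, described below, that differ in ligand and receptor levels. Hbegf averaged 377 CPM in its U90926 and 115 CPM in its Igfbp2 cluster, and Egfr 45.9 and 28.8 CPM. Erbb2 went the other way, at 13.1 and 15.4 CPM. Their part in the basal-like order was not tested. No cluster was of a type that should lack these genes, so the share given by free RNA could not be measured. Wilson 95% intervals reached at most 7.75 percentage points to either side of a library's share and cover counting error only. Erbb4 had no UMI in 25154 cells, which allows a share of up to 0.0119% of cells with a UMI.

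**Figure D3:**
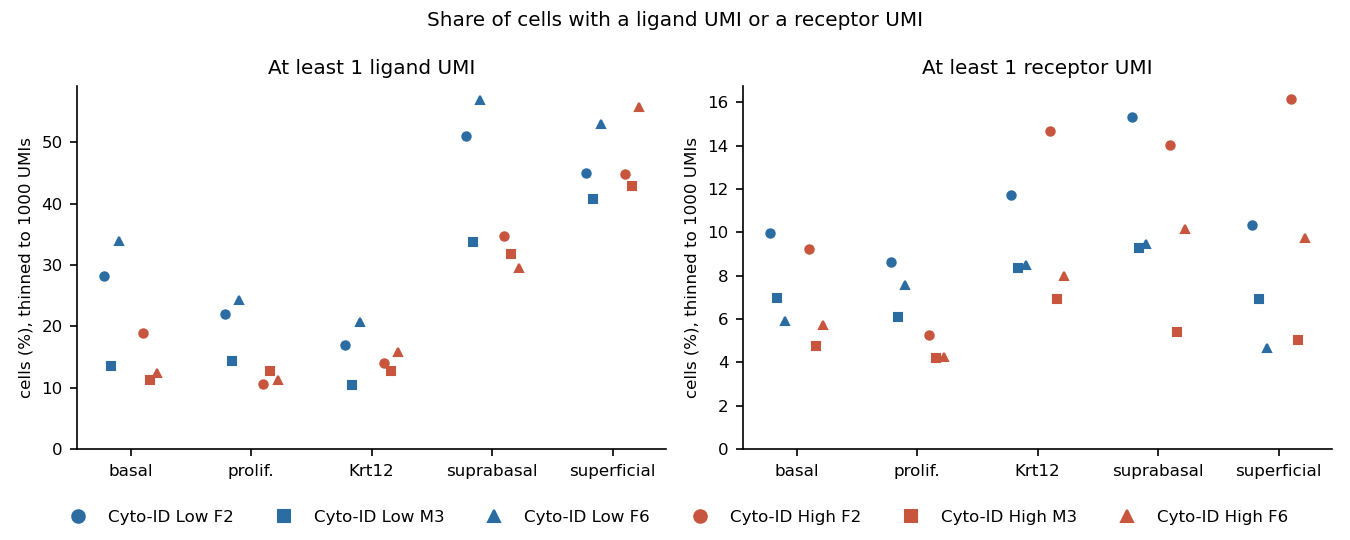
Percent of cells with at least 1 UMI of any of the 6 ligands (left) or of any of the 3 receptors (right) after thinning to 1000 UMIs per cell, by class, 1 point per library (blue Cyto-ID Low, red Cyto-ID High). Ligand shares run from 10.5% to 56.9% and are higher in suprabasal-like than in basal-like cells of the same library, although the classes overlap across libraries (basal-like Cyto-ID Low F6 at 33.9%, suprabasal-like Cyto-ID High F6 at 29.5%), and receptor shares lie between 4.22% and 16.2% in all classes.

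Ligands such as Hbegf and Areg are known to respond quickly to stress, and the organoids were dissociated for 1 hour in trypsin at 37 °C. Of a dissociation and stress list, 6 of 10 genes were called higher in suprabasal-like cells (Ier2 by 0.89 ± 0.07, Junb by 1.1 ± 0.09 and Hspa1b by 1.08 ± 0.10 in log2, SE) and 1 lower (Jun, -0.25 ± 0.08), against 30.1% and 27.9% of all genes, and 5 higher and 2 lower on plain CPM (16.2% and 53.9% of all genes). In superficial-like cells 9 of 10 were higher with TMM (28.5% of all genes), and 4 higher and 1 lower on plain CPM (13.3% and 62.1%). In proliferating-like cells 9 of 10 were lower, where 16.3% of all genes were, with Hbegf and Tgfa lower and Areg higher. Their part in the ligand differences was not tested.

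The rest of the pathway was counted on 5 lists drawn up by function, beside the 30.1% of all genes called higher and 27.9% called lower in suprabasal-like cells. The counts of feedback genes called higher and of ERK targets called in either direction lie near those shares and are no result about these lists. Of the other ligands and receptors only Nrg1 and Nrg2 were expressed enough to test, and both were lower in suprabasal-like cells. Nrg1, a neuregulin that binds ERBB3, was at 86.7 ± 22.7 CPM in basal-like and 7.01 ± 4.44 CPM in suprabasal-like cells (SD, n = 6), a log2 difference of -3.22 ± 0.16 (SE; adjusted p = 5.45e-09 by limma), opposite in direction to its receptor gene Erbb3. Egf itself was at 0.193 ± 0.108 CPM over all cells. Of 6 genes that release ligands or control release, 3 were called higher in suprabasal-like cells with TMM, the sheddase gene Adam17 (0.79 ± 0.11), Adam10 (0.55 ± 0.09) and the rhomboid protease gene Rhbdl2 (0.84 ± 0.20), and 1 lower, Timp3, which inhibits metalloproteases (-2.06 ± 0.27). On plain CPM Adam10 (0.13, adjusted p = 0.217) and Rhbdl2 (0.47, adjusted p = 0.0506) were not called by limma. With that scaling these 6 genes gave 1 higher and 2 lower, where 16.2% of all genes were higher and 53.9% lower.

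Of 13 tested genes that dampen the pathway, 4 were higher and 8 lower in suprabasal-like cells, with a median of -0.35. On plain CPM 3 were higher and 9 lower. With that scaling 16.2% of all genes were higher and 53.9% lower, which are also the shares for the ERK targets and relay genes below. The phosphatase genes Dusp4 and Dusp5 rose, Dusp4 from 10.6 ± 6.0 to 91.5 ± 63.8 CPM (SD, n = 6; log2 difference 3.25 ± 0.14, adjusted p = 2.04e-09 by limma) and Dusp5 by 2.03 ± 0.12, and Errfi1, which blocks the EGFR kinase, rose by 0.94 ± 0.11. Spred2 fell by 2.14 on the log2 scale, from 23.8 ± 5.65 to 3.65 ± 2.03 CPM, and Lrig3 and Cblb fell by 1.52 and by 1.30. Dusp6, named after its value was seen, fell by 1.71. Of 10 targets of ERK signalling (2 higher and 5 lower on plain CPM), 4 rose, among them Phlda1 (2.63 ± 0.10) and Ier3 (1.11 ± 0.13), and 4 fell, among them Etv4 (-1.24 ± 0.22), Itga2 (-1.01 ± 0.20) and the cyclin gene Ccnd1 (-0.35 ± 0.09). Of 16 relay genes, 9 were higher and 0 lower with TMM, and 5 higher and 6 lower on plain CPM. Mapk3, which encodes ERK1, was higher under both (1.05 ± 0.09 with TMM). In superficial-like cells, where 28.5% of all genes were called higher and 34.3% lower, the same lists gave 3 higher, near that share, and 7 lower of 12 feedback genes (Dusp4 5.91 ± 0.21, Lrig3 -2.29 ± 0.26) and 4 higher and 6 lower of 10 ERK targets (Phlda1 3.65 ± 0.14, Ccnd1 -1.23 ± 0.12, Etv4 -2.62 ± 0.30). On plain CPM they gave 3 higher and 8 lower, and 3 higher and 6 lower. With that scaling 13.3% of all genes were higher and 62.1% lower, so these lower counts lie near the share. In proliferating-like cells Etv4 and Ccnd1 were the 2 of 10 ERK targets higher than in basal-like cells, by 0.80 ± 0.15 and 0.22 ± 0.07. More of these targets, 5 of 10, were lower there, among them Itga2, Egr1 and Ier3 (2 higher and 4 lower on plain CPM). Of 12 feedback genes 5 were lower and 0 higher. Of all genes 16.3% were lower and 14.2% higher, and 13% and 16.1% on plain CPM.

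**Figure D4:**
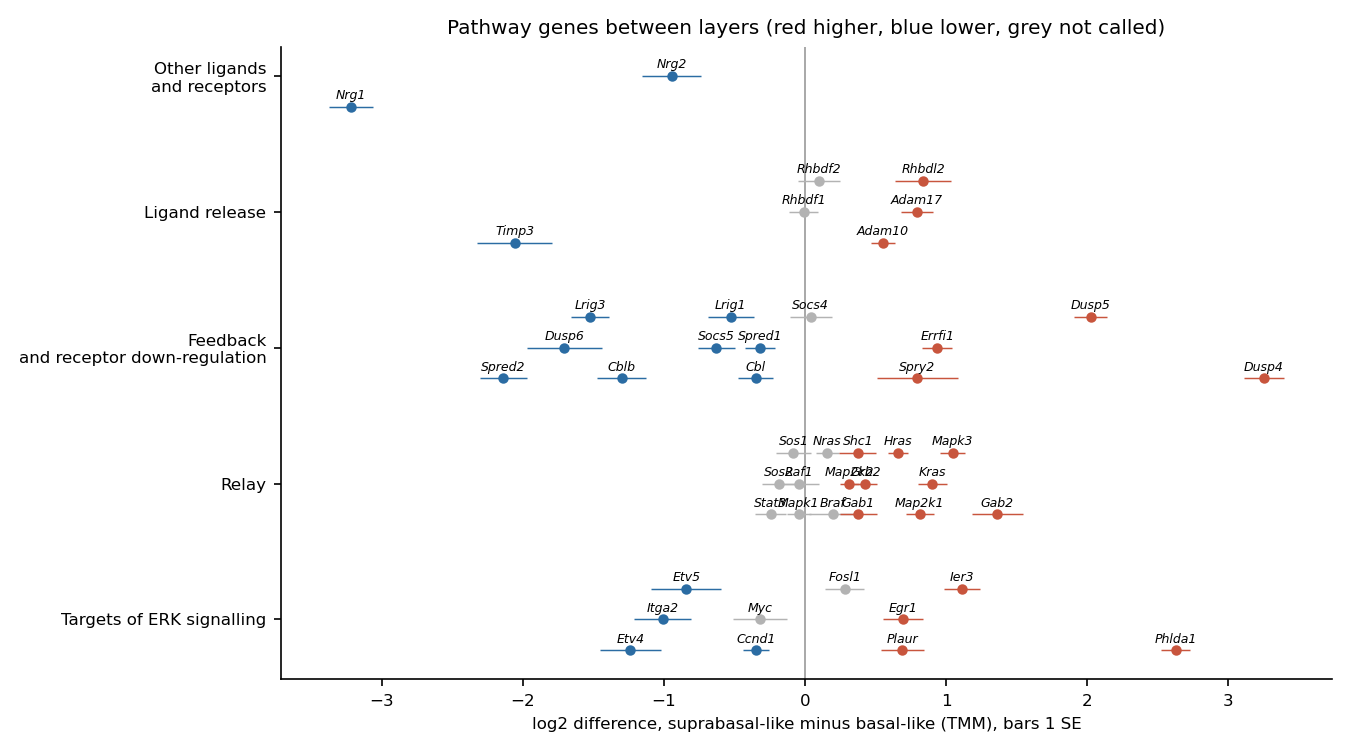
Log2 difference between suprabasal-like and basal-like cells (TMM scaling; bars 1 SE, n = 6 libraries) of each tested gene of 5 pathway lists; red is called higher, blue called lower and grey not called, and height within a list only separates labels. Nrg1, Spred2, Dusp6 and Etv4 lie on the basal side and Dusp4, Dusp5 and Phlda1 on the suprabasal side.

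Likeness of pattern was described by Pearson correlation over 24 points (4 classes in 6 libraries, each centred within its library), which share libraries and depth. Areg was most like Cadm4 (r = 0.97), Nbeal2 and Gipc1, Hbegf like Epha2 (0.98), Basp1 and Pcdh1, Tgfa like Sqstm1 (0.97), Plet1 and Hist1h1c, and Btc like E130202H07Rik (0.96), Capn2 and Cgn. Erbb3 was most like Zdhhc5 (0.98), Ppp1cb and Arhgap27, and Egfr like Lamp1 (0.91), Chpf2 and Etfrf1. Among the 9 genes themselves, Areg and Btc gave 0.90, Areg and Erbb3 0.92 and Hbegf and Erbb3 0.91, while Areg and Egfr gave -0.20. With Erbb3, Btc gave 0.90, Tgfa 0.79, Ereg 0.62 and Epgn 0.04. Ereg and Epgn, under 5 CPM, were not matched.

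Between organoids of Cyto-ID High and Cyto-ID Low founders, no gene of the 9 was called in all cells or in any class. By limma 0 of 9 passed in all cells (0.163% of genes called), basal-like (0.233%), proliferating-like (0.232%) and suprabasal-like cells (0.255%), and 0 of 8 in superficial-like cells (0.0197%), where Epgn was too low to test. At an unadjusted p under 0.05 the counts were 1, 0, 1, 2 and 0, where 8.08%, 6.8%, 8.02%, 12.3% and 2.05% of all genes were. With a block for the replicate label the counts of called members stayed at 0, where 0.55%, 0.913%, 0.309%, 2.09% and 0.0197% of genes were called. Areg and Btc in suprabasal-like cells stood nearest to one. Areg was 0.97 lower in log2 in Cyto-ID High (log2 difference -0.97 ± 0.31, SE; adjusted p = 0.258 by limma), and all 3 Cyto-ID High values given above, 82.1 to 99.5 CPM, lay below the lowest Cyto-ID Low value of 129 CPM. Btc was lower by 1.07 (-1.07 ± 0.31; adjusted p = 0.205 by limma), from 14.7 ± 4.51 to 5.86 ± 1.16 CPM (SD, n = 3 each), again without overlap. Of all genes tested in these cells 16% had groups that did not overlap, 9.48% with Cyto-ID High lower. None of the 9 separated in basal-like (13.3% of genes), proliferating-like (15.8%) or, of 8, superficial-like cells (7.34%). Over all cells Btc was at 7.94, 4.17 and 8.53 CPM in Cyto-ID Low and at 3.46, 3.47 and 3.19 CPM in Cyto-ID High libraries, the only one of the 9 without overlap there, where 12.6% of genes had none, 8.13% with Cyto-ID High lower (log2 difference -0.71 ± 0.27, adjusted p = 0.588 by limma).

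The make-up of the suprabasal-like class moved with the founders. A cluster led by Il33 and Aldh1a3 held 80.8% to 94.6% of the class in Cyto-ID Low and 46.4% to 56.0% in Cyto-ID High libraries, and a cluster led by Calm4, Sprr1b and Krtdap, genes of cornification, held the rest. Over 6 libraries, Hbegf in the Calm4 cluster was at 232 ± 107 CPM (SD), beside 211 ± 139 CPM in basal-like cells. Tgfa was at 17.4 ± 4.98 beside 22.3 ± 7.66 CPM, and Btc at 1.93 ± 2.48 beside 1.61 ± 1.06 CPM. The means of Areg, Ereg and Epgn were higher in that cluster, at 59.3, 5.22 and 3.68 CPM beside 25.8, 3.63 and 1.62 CPM. Areg in the Il33 cluster was at 250, 148 and 231 CPM in Cyto-ID Low and 123, 139 and 174 CPM in Cyto-ID High, which overlapped. In the Calm4 cluster it was at 132, 51.3 and 73.7 CPM and at 30.6, 43.9 and 24.5 CPM, which did not, although Cyto-ID Low F6 had 37 such cells. Btc in the Calm4 cluster, with 17 UMIs, was at 1.36 to 6.83 CPM and at 0.343 to 0.656 CPM, also without overlap. The share of all genes without overlap was not counted in single clusters. Within the Il33 cluster alone the log2 difference of Areg was -0.47 ± 0.32 (adjusted p = 0.998 by limma, -0.97 in the whole class) and that of Btc -0.46 ± 0.32 (adjusted p = 0.998, -1.07 in the whole class). The basal-like class shifted too: a cluster led by Igfbp2 was 6.54% to 12.1% of it in Cyto-ID Low and 31.5% to 35.5% in Cyto-ID High libraries. A cluster led by U90926 was 25.6% to 37.4% and 13.6% to 24.5% of it. Hbegf was at 377 ± 216 CPM in the U90926, 170 ± 102 CPM in the Tmem176b and 115 ± 77.0 CPM in the Igfbp2 cluster (SD, n = 6). By founders (Cyto-ID Low, then Cyto-ID High), Hbegf was at 461 ± 290 and 293 ± 109 CPM in the U90926 cluster. In the Tmem176b cluster it was at 228 ± 122 and 112 ± 29.6 CPM. In the Igfbp2 cluster it was at 172 ± 67.0 and 57.1 ± 20.3 CPM (SD, n = 3 each). The part of these shifts in make-up in the suprabasal-like Areg and Btc differences, and in the basal-like Hbegf difference below, was not tested.

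**Figure D5:**
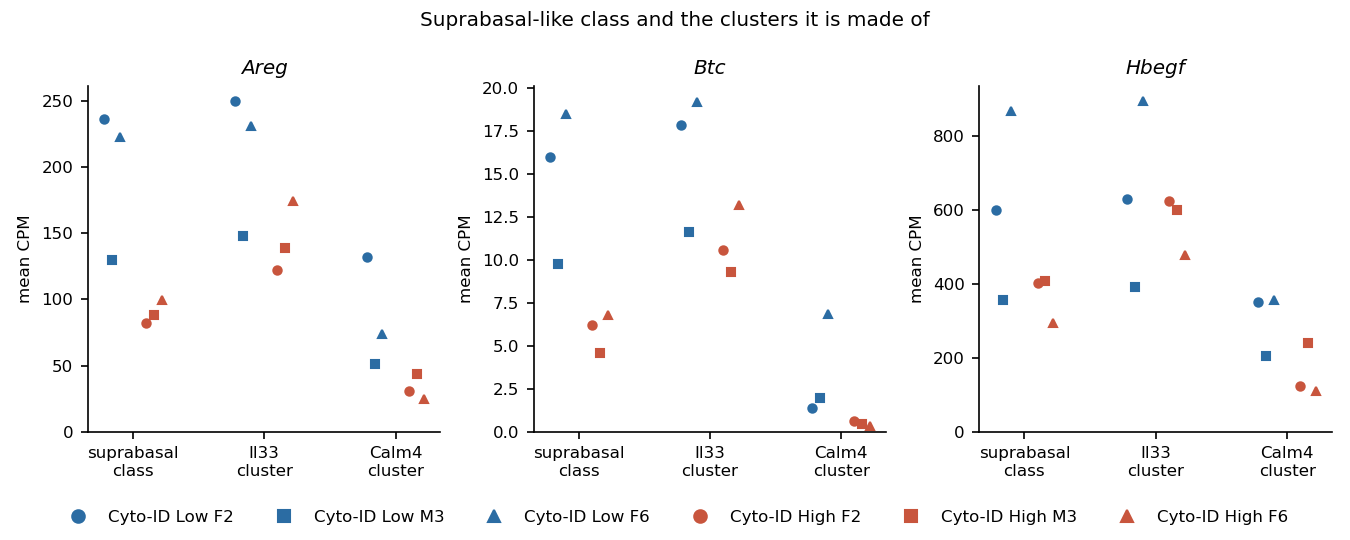
Mean CPM (from 0) of Areg, Btc and Hbegf in the suprabasal-like class and in its Il33 and Calm4 clusters, 1 point per library (blue Cyto-ID Low, red Cyto-ID High). The groups stand apart in the class for Areg and Btc, overlap in the Il33 cluster, and all 3 genes are lower in the Calm4 than in the Il33 cluster of the same library.

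Hbegf was lower in Cyto-ID High on average in basal-like cells (log2 difference -0.85 ± 0.44, SE; adjusted p = 0.762 by limma), where Cyto-ID Low M3, at 119 CPM, lay within the Cyto-ID High range. This value rested on single libraries, at -1.41 without Cyto-ID Low M3 and -0.41 without Cyto-ID Low F6. In superficial-like cells its difference was -0.06 ± 0.33 with TMM and 0.09 on plain CPM. In proliferating-like cells Hbegf was at -0.85 ± 0.38 (unadjusted p = 0.0465, adjusted p = 0.611 by limma) and Egfr at -0.68 ± 0.33 (unadjusted p = 0.0594, adjusted p = 0.633), and over all cells Areg was at -0.63 ± 0.34 (adjusted p = 0.666 by limma). Without Cyto-ID Low M3 these 3 values were -1.34, -1.05 and -0.99, and without Cyto-ID Low F6 -0.43, -0.44 and -0.41. Of the others over all cells, Hbegf was at -0.58 ± 0.41, Egfr at -0.32 ± 0.28, Tgfa at -0.20 ± 0.33, Erbb3 at -0.14 ± 0.31 and Ereg at -0.04 ± 0.34 (log2, SE). Epgn was at 0.37 ± 0.40 and Erbb2 at 0.11 ± 0.19, and Erbb2 was at 0.00 on plain CPM. Leaving out 1 library each, Hbegf over all cells ranged from -1.05 to -0.21. In basal-like and suprabasal-like cells, Erbb3 and Egfr were higher in F2 than in M3 of both groups.

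Whether the step from basal-like to suprabasal-like cells differed between founders was tested on the step itself. For Areg it was 3.19, 3.24 and 2.89 in Cyto-ID Low and 2.39, 2.48 and 2.45 in Cyto-ID High libraries (log2), without overlap. Steps did not overlap for 2 of the 9 genes, Areg and Ereg, and for 19% of all genes, 10.5% with Cyto-ID High lower. The difference between steps was -0.67 ± 0.15 (SE), with an adjusted p of 0.0639 by limma, and 0.0175 with a block for the replicate label, where 3.67% of genes were called (0.761% without it). Over all alternatives this adjusted p ranged from 0.0175 to 0.858, the highest with only the Il33 cluster and a single basal cluster led by Tmem176b, where the difference was -0.41 ± 0.21. The counts were 0 of 9 genes called without the block (2 at an unadjusted p under 0.05, as were 13.4% of all genes) and 1 of 9 with it. Ereg gave -1.01 ± 0.32 (adjusted p = 0.185) and Hbegf 0.28 ± 0.23 (adjusted p = 0.634), both by limma.

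No gene of the 6 pathway and stress lists was called between founders in any class without the replicate block, and 3 were called with it in suprabasal-like cells, where 2.09% of genes were: Dusp4, Myc (1.30, adjusted p = 0.0285 by limma) and Dusp1 (0.97, adjusted p = 0.0445). In suprabasal-like cells Dusp4 was at 196, 79.4 and 131 CPM in Cyto-ID Low and at 83.6, 27.7 and 31.4 CPM in Cyto-ID High libraries, with a slight overlap (log2 difference -1.47 ± 0.38, SE; adjusted p = 0.168 by limma, and 0.0246 with the replicate block). Phlda1 was at -0.29 ± 0.30 and Ier3 at -0.56 ± 0.33. On the step from basal-like to suprabasal-like cells, Myc was called higher (1.13 ± 0.21, adjusted p = 0.0326) and Ier3 lower (-0.71 ± 0.14, adjusted p = 0.0419) by limma in Cyto-ID High, among 10 ERK targets, where 0.761% of all genes were called. With the block, where 3.67% were, Etv4 (1.18, adjusted p = 0.0426), Dusp4 (-0.78, adjusted p = 0.0294) and the stress gene Fos (0.71, adjusted p = 0.00802) were called on this step as well by limma. The summed level of the dissociation list was 2855 to 3391 CPM in Cyto-ID Low and 2295 to 3371 CPM in Cyto-ID High libraries.

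The share of cells with a ligand UMI, thinned to 1000 UMIs, was 35.1%, 19.6% and 39.4% in Cyto-ID Low and 23.7%, 20.2% and 18.2% in Cyto-ID High libraries, with Cyto-ID Low M3 among the Cyto-ID High values. The difference of -10.7 percentage points had p = 0.3 in a two-sided exact permutation test, which cannot go below 0.10 for 3 against 3. The share with a receptor UMI was 8.61 ± 2.12% and 7.64 ± 2.91% (SD, n = 3 each; exact permutation p = 0.5), and without Cyto-ID Low F2 or Cyto-ID High M3 the difference changed sign, from -0.97 to 0.25 percentage points. Unthinned, the ligand shares were 64.6 ± 13.1% and 45.8 ± 22.0% and the receptor shares 38.3 ± 18.9% and 28.5 ± 26.3%. Depth was not made equal in these unthinned shares. Median UMIs per kept cell were 7789, 6080 and 2716 in Cyto-ID Low and 10038, 2357 and 1940.5 in Cyto-ID High libraries. In proliferating-like cells both shares were lower in every Cyto-ID High library: 20.3 ± 5.23% against 11.6 ± 1.1% for a ligand and 7.43 ± 1.26% against 4.57 ± 0.60% for a receptor (SD, n = 3 each), both at the smallest exact permutation p of 0.10. Thinned to 500 UMIs, the ligand shares there overlapped (11.0 ± 3.98% and 6.38 ± 1.06%, exact permutation p = 0.2, 1 of 3 pairs higher in Cyto-ID High), while the receptor shares kept an exact permutation p of 0.1. In suprabasal-like cells the ligand share was 47.2 ± 12.05% and 32.0 ± 2.62% (exact permutation p = 0.2), lower with Cyto-ID High founders in all 3 pairs, and at 500 UMIs 31.2 ± 9.13% and 19.5 ± 0.67% (exact permutation p = 0.1). In basal-like cells it was 25.2 ± 10.5% and 14.2 ± 4.10% (exact permutation p = 0.2, and 0.4 at 500 UMIs). In superficial-like cells the ligand share was 46.3 ± 6.17% and 47.9 ± 7.0%.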

How the data were processed

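Single-cell RNA libraries (10x 3′ v3.1) of 6 organoid cultures, 3 per group, were used. The deposited values are the natural log of 1 plus each UMI count over its cell's total times 10000, as the values themselves show; per the submitters' processing notes Cell Ranger 6.0.0 and Seurat 4 were used with mm10/GRCm38. UMI counts were recovered from these values. As the unit is a log value, limma was the test and no count model was run. The members, gene lists and parts of the design were chosen with earlier results of these data known.

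Cells with at least 500 detected genes were integrated by reciprocal PCA (Seurat 5.3.0, 2000 variable genes, 30 components, resolution 0.5), with 72 genes, the members and lists, kept out. Clusters were named from fixed markers, and those under 0.33 of their library's median UMIs stayed unnamed. Doublets were not removed: Scrublet (scanpy 1.11.5) marked 0 to 0.337% of cells per library, too few to have worked, and an alternative dropped the top-scoring 5% of cells. Mean CPM per class and library was scaled by TMM (trims 30% and 5%), and genes reaching 1 CPM in 3 or more libraries were tested as log2(CPM + 1) with limma 3.58.1 (R 4.3.3, mean-variance trend), which understates changes of low genes. Layers were compared by differences within libraries. Shares of cells were taken after thinning to 1000 UMIs, which left out 347 cells. Fitting was tested on simulated data. Named list genes are up to 3 per direction with the smallest adjusted p, or the 3 with the highest level where none passed; others are named as chosen later. The genes most like Erbb2 in pattern are not reported here. The alternatives changed the pseudocount, filter, scaling, summing, depth, gene minimum, clustering, libraries and doublets, and 1 used single clusters, which was chosen after seeing the data.

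The replicate labels F2, M3 and F6 come from the sample titles. Deviations from the group means correlated within labels at 0.76, 0.58 and 0.149 over 8878 genes. Cyto-ID Low F2 and Cyto-ID High F6, with unlike labels, gave 0.172, so the pairing of F6 is not clear. The main tests between founders did not pair libraries by label. Only the replicate block, the sign-flip test and the counts of pairs did.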

Additional observations from a re-analysis of the deposited data

Results flagged for a closer look

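Ereg differed between founders in opposite directions in 2 classes of the same libraries, with neither difference past the test (adjusted p = 0.853 and 0.635 by limma). In basal-like cells all 3 replicate pairs had more Ereg with Cyto-ID High founders, by a mean of 0.28 in log2(CPM + 1) without TMM scaling, and in suprabasal-like cells it was lower in all 3, by a mean of -0.66. With TMM scaling, as in all tests here, the differences were 0.42 ± 0.37 and -0.57 ± 0.43 (SE). The test of the difference itself gave -1.01 ± 0.32 (SE) with an adjusted p of 0.185 by limma and did not pass. With cells thinned to 1000 UMIs the suprabasal-like difference was 0.21, so the opposite directions were lost. Ereg had 188 UMIs in basal-like and 303 in suprabasal-like cells.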

How the results depend on the processing

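Epgn, Ereg and Btc had the fewest UMIs of the 9 genes, and superficial-like cells of Cyto-ID High F6 were few (155). Btc stayed called in suprabasal-like and superficial-like cells when thinned. Egfr lost its suprabasal and Erbb2 its superficial call, although both had more UMIs. The filter of 1500 genes gave no value for basal-like, suprabasal-like and superficial-like cells, nor resolution 1.0 for suprabasal-like cells. At that resolution the cluster led by Il33 (2249 cells) was left unnamed. In cells thinned to 1000 UMIs the count of members called fell from 3 to 1 between proliferating-like and basal-like, from 9 to 7 between suprabasal-like and basal-like and from 7 to 5 between superficial-like and basal-like cells. From summed UMIs 8 of 9 were called between suprabasal-like and basal-like cells, without Egfr. With the replicate block, 1 member (Areg) in place of 0 was called on the difference between steps, and the block changed no other member's call. The share differences, -10.7 and -0.97 percentage points, had exact sign-flip p-values of 0.5 and 0.25 within pairs, the latter the smallest that 3 pairs allow. Leaving out 1 library each, they ranged from -16.6 to -6.70 for ligands and from -2.58 to 0.25 for receptors. The cause of the changes below was not tested.

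Signs changed as follows (log2). High minus Low, all cells: thinned, Ereg 0.048 and Tgfa 0.0080; plain CPM, Erbb2 -0.0038; 1500 genes, Erbb2 -0.18. Proliferating-like: 1500 genes, Tgfa 0.014 and Epgn -0.97. Suprabasal-like: thinned, Ereg 0.21 and Tgfa 0.38; single clusters, Tgfa 0.28. Superficial-like: plain CPM, Hbegf 0.089 and Btc 0.011; thinned, Tgfa 0.067 and Erbb2 0.52. Suprabasal minus basal: plain CPM, Egfr -0.14. Superficial minus basal: plain CPM, Egfr -0.50; thinned, Egfr -0.14 and Ereg -0.96; Epgn 0.10 from summed UMIs, 0.45 at resolution 0.3 and 0.036 at 1.0. Proliferating minus basal: thinned, Ereg -0.10; summed UMIs, Btc 0.026. Difference between steps: thinned, Epgn 0.61; single clusters, Epgn 0.23 and Btc 0.33.

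Leaving out 1 library each, ranges that crossed 0 were, for High minus Low in all cells, Ereg -0.40 to 0.14, Tgfa -0.46 to 0.089 and Erbb3 -0.39 to 0.14. In basal-like cells they were Tgfa -0.46 to 0.12, Egfr -0.39 to 0.045 and Erbb3 -0.28 to 0.21, and in proliferating-like cells Ereg -0.37 to 0.092 and Epgn -0.31 to 0.91. In suprabasal-like cells they were Tgfa -0.27 to 0.24, Epgn -0.14 to 0.73 and Erbb3 -0.55 to 0.042. In superficial-like cells they were Areg -0.65 to 0.20, Ereg -0.15 to 0.60, Hbegf -0.27 to 0.21, Btc -0.45 to 0.29 and Erbb3 -0.21 to 0.47. Btc ranged from -0.27 to 0.14 between proliferating-like and basal-like cells, and Epgn from -0.58 to 0.22 on the difference between steps.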
